A study of Mus musculus with 72 samples.

Results

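Hypothalamic neuropeptide and receptor genes, 8 in number, were followed across pregnancy and nursing. They are Npw and its receptor Npbwr1, Prlh and its receptor Prlhr, and the peptide precursors Gal, Penk, Pdyn and Tac1. They were chosen by name, and all 8 were matched to 1 of the 39179 gene IDs of the count table. Npw and Prlh were picked because their levels differed between stages in these same libraries, so their stage values in the hypothalamus are given as a description with no test. The other 6 were not picked for a pattern. All members and the gene lists below were chosen with earlier results of these data known, so their tests are not independent of that choice.

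RNA was sequenced from 18 female C57BL/6J mice, 3 at each of 6 stages, and every mouse gave 4 libraries, from cerebellum, neocortex, hippocampus and hypothalamus. The stages were age-matched virgin females cycling at random (Virgin), females 14 or 16 days after a seminal plug was seen, by the study's count (PC14 and PC16; the sample labels count the plug day as day 1, which makes the stages 1 day younger), and nursing dams 1, 3 or 10 days after birth (PP1, PP3 and PP10). The labels name no transgene and no drug, and the mice were nulliparous before the study. Virgin females were not mated, so mating, pregnancy and nursing cannot be told apart in a comparison of dams with virgins. The 15 mice of the 5 later stages are called dams below, including the pregnant ones. The hypothalamus was dissected from brains that were not perfused. In such bulk tissue, fewer cells of a type and less RNA per cell cannot be told apart.

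A neuropeptide is made as a longer precursor, cut by prohormone convertases in the secretory pathway and released from dense core vesicles onto receptors coupled to G proteins. Npw encodes neuropeptide W, which acts on the receptor NPBWR1 and is known for effects on feeding, stress and pituitary hormones. Prlh encodes prolactin-releasing peptide, which acts on PRLHR and, despite its name, is best known for effects on feeding and stress. Galanin (Gal), the enkephalins (Penk), the dynorphins (Pdyn) and substance P with neurokinin A (Tac1) are peptides that many hypothalamic neurons release beside a fast transmitter. Nursing raises prolactin from the anterior pituitary, and prolactin signals back to hypothalamic neurons through JAK2 and STAT5.

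Hypothalamus libraries held 10519208 to 14208864 counts (median 13060647), and none of the 10 genes listed as hypothalamus markers was at 0 in all 18 libraries. Their summed level was 887 to 2109 counts per 1000000 library counts (CPM) in the 15 dam libraries and 1596 to 1892 CPM in the 3 virgin libraries. In pregnancy it was lower, at 887 to 1473 CPM at PC14 and 1125 to 1632 CPM at PC16. After birth it was 1174 to 1943 CPM at PP1, 1523 to 2109 CPM at PP3 and 1724 to 1908 CPM at PP10. The number of genes called between dams and virgins depended on which virgin libraries were kept. With all 18 libraries, 682 of 14385 genes were called. Dropping mouse B left 175 calls, dropping mouse M left 284, and dropping mouse O gave 729. Marker genes of the anterior pituitary, which can stay attached to a dissected hypothalamus, ranged from 0.0795 to 240 CPM in sum over the 15 dam libraries and from 5.99 to 26.3 CPM over the 3 virgin libraries.

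Npw was almost absent from the hypothalamus in virgins and at PC14 and PC16, and present in all 9 nursing dams. The gene (ENSMUSG00000071230) lies on the minus strand at chr17:24657330-24658457 (GRCm38) and overlaps no other gene. Its counts were 0, 2 and 0 in virgins, 1, 0 and 2 at PC14, 0, 1 and 0 at PC16, 26, 18 and 15 at PP1, 16, 29 and 21 at PP3, and 57, 46 and 48 at PP10. Every one of the 9 nursing libraries lay above every one of the 9 earlier libraries, and the PP10 libraries lay above all others. The mean level was 1.62 ± 0.341 CPM at PP1, 1.77 ± 0.581 CPM at PP3 and 3.84 ± 0.404 CPM at PP10 (SD, n = 3 each), in CPM after scaling by the trimmed mean of M values (TMM). In FPKM, which also divides by transcript length, the PP10 mean was 5.16 ± 0.620 (SD, n = 3).

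A pair of steps separated the stages of Npw. The first lay between PC16 and PP1. No stage was sampled in between, so its time relative to birth is not known. Nursing dams had 276 counts in sum and pregnant females had 4, a ratio of 48.3 (95% counting interval 18.6 to 178). Leaving out each library in turn gave ratios of 41.0 to 77.6. The second lay between PP3 and PP10, where the PP10 level was 2.19 times that at PP3 (1.63 to 2.97) and 2.36 times that at PP1 (1.74 to 3.25). PP1 and PP3 differed by less than their spread, with a ratio of 1.08 for PP3 over PP1 (0.748 to 1.56). Pregnant females could not be told from virgins at this depth, with a ratio of 0.983 (0.141 to 10.9). In the order PP10, PP3, PP1, PC14, Virgin, PC16, only the neighbours PP10 and PP3 and the neighbours PP1 and PC14 had ranges that did not overlap. The intervals cover counting error only, and reads copied by PCR are not independent molecules.

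**Figure D1:**
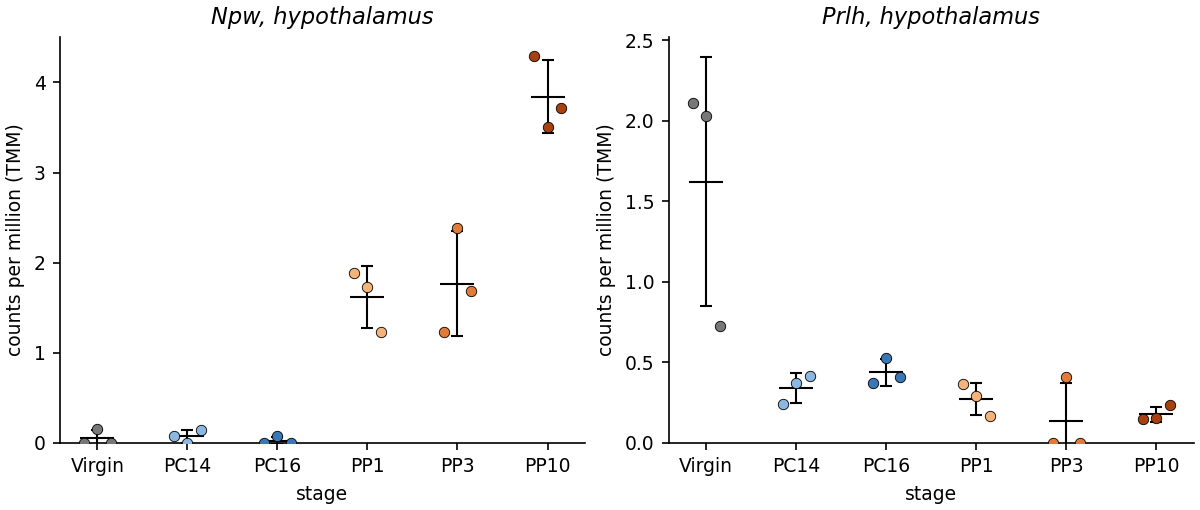
Levels of Npw (left) and Prlh (right) in the hypothalamus, in CPM after TMM scaling, by stage along the horizontal axis. Each point is 1 mouse, the wide bar is the mean and the error bar is 1 SD (n = 3). Npw sits at 0 to 0.156 CPM in the virgin and pregnant mice and at 1.23 to 4.29 CPM in the nursing dams, and the 3 highest points of Prlh are the 3 virgins.

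Npw was close to absent in the other 3 regions at every stage. It had 282 counts over the 18 hypothalamus libraries, against 0 in the cerebellum, 9 in the neocortex and 24 in the hippocampus. Hippocampal counts summed to 1 in virgins, 9 in PC14, 3 in PC16, 5 in PP1, 3 in PP3 and 3 in PP10 mice, and none of these libraries had more than 4. Npw was picked for its stage pattern in the hypothalamus, so the split by stage that follows is a description and no test. The hypothalamus exceeded the other regions in the nursing dams. In their 9 brains Npw had 276 counts in the hypothalamus and 11 in the hippocampus, a ratio of 25.8 (14.2 to 52.3), and was higher in the hypothalamus in 9 of 9. In the 9 pregnant and virgin mice it had 6 counts in the hypothalamus and 13 in the hippocampus, a ratio of 0.457 (0.142 to 1.29), and was higher in the hypothalamus in 2 of 9. Against the neocortex the ratio was 49.2 (20.8 to 153) in nursing dams and 1.34 (0.318 to 6.46) in pregnant and virgin mice. Against the cerebellum, with 0 counts, the hypothalamus of nursing dams was at least 84.5-fold higher, taking 3 counts over 9 libraries as the floor.

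Marker genes of hypothalamic nuclei and of the pituitary were read beside Npw. Markers of the paraventricular and supraoptic nuclei summed to 490 to 914 CPM at PC14 and 703 to 1011 CPM at PC16, then to 725 to 1311 CPM at PP1, 1042 to 1667 CPM at PP3 and 1208 to 1285 CPM at PP10, beside 1179 to 1425 CPM in virgins, where Npw was near 0. Their medians were thus lower in pregnancy than after birth, as those of Npw were. Markers of the lateral hypothalamus summed to 336 to 463 CPM at PP10 and 202 to 277 CPM in virgins, with 194 to 452 CPM over the other stages of dams. Arcuate markers summed to 139 to 218 CPM in dams and 211 to 364 CPM in virgins. Tanycyte markers summed to 46.6 to 86.7 CPM in dams and 66.7 to 110 CPM in virgins. Ventromedial markers summed to 60.0 to 88.6 CPM in dams and 67.2 to 106 CPM in virgins. Dopamine neuron markers summed to 120 to 216 CPM in dams and 121 to 145 CPM in virgins. In none of the sets from the lateral one to the dopamine one did the medians lie lower at each pregnancy stage than at every postpartum stage. The summed hypothalamus markers, which share genes with the paraventricular and supraoptic set, did show that order. Their medians were 1244 CPM at PC14 and 1241 CPM at PC16, then 1872, 1735 and 1850 CPM at PP1, PP3 and PP10. The pituitary sum was 0.0795 to 16.4 CPM at PC14, 0.296 to 31.0 CPM at PC16, 19.7 to 98.4 CPM at PP1, 0.0822 to 240 CPM at PP3 and 0.387 to 7.45 CPM at PP10, beside 5.99 to 26.3 CPM in virgins. The part of these cells in the Npw values was not tested.

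Npbwr1, the receptor for neuropeptide W, did not follow its ligand. It is at chr1:5913707-5917398 on the minus strand (ENSMUSG00000033774). Its counts were 112, 93 and 100 in virgins, 124, 86 and 80 at PC14, 92, 79 and 80 at PC16, 110, 83 and 90 at PP1, 90, 75 and 82 at PP3, and 101, 93 and 92 at PP10. The libraries of all stages lay between 75 and 124 counts. In CPM those of PC16 (5.98 to 6.82) and PP3 (6.16 to 6.91) lay below the virgins (7.26 to 8.15), but neither stage was called, at log2 fold changes of -0.28 (edgeR quasi-likelihood adjusted p = 0.401) and -0.26 (edgeR adjusted p = 0.528). Nursing dams against pregnant females gave a log2 fold change of 0.073 (SE 0.0999, edgeR quasi-likelihood adjusted p = 0.928), with an interval of -0.12 to 0.27. Dams against virgins gave -0.15 (SE 0.117, edgeR adjusted p = 0.5). In contrast with Npw, its transcript was also present in the hippocampus, with 581 counts there and 1662 in the hypothalamus, a ratio of 2.89 (2.62 to 3.18), and was rare in the neocortex (125 counts) and cerebellum (6 counts).

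Prlh was highest in virgins and low at every later stage. The gene (ENSMUSG00000090550) lies on the plus strand at chr1:90953108-90954027. It had 29, 26 and 9 counts in virgins, 3, 5 and 6 at PC14, 5, 7 and 5 at PC16, 5, 3 and 2 at PP1, 0, 5 and 0 at PP3, and 2, 2 and 3 at PP10. All 15 dam libraries lay below the lowest virgin library, in counts and CPM, although that library had only 9 counts and the virgins had the largest SD of the 6 stages in CPM. In FPKM, PC16 mouse 58 (1.75) was just above virgin mouse O (1.72). The virgin mean was 1.62 ± 0.775 CPM, and the means of the later stages were 0.343, 0.437, 0.272, 0.137 and 0.179 CPM from PC14 to PP10, with SDs of 0.0467 to 0.237 CPM (n = 3 each).

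The low level of Prlh was already there at PC14. PC14 females had 14 counts in sum and virgins had 64, a ratio of 0.211 (0.109 to 0.380), and PC16 females had 17, a ratio of 0.266 (0.146 to 0.459). Over all 5 later stages the ratio to virgins was 0.167 (0.114 to 0.245), from 53 counts in dams and 64 counts in virgins, and leaving out each library in turn gave 0.132 to 0.198. The 9 nursing dams had 22 counts and the 6 pregnant females had 31, a ratio of 0.497 (0.274 to 0.886). That interval leaves out the spread between mice, so no second difference is read from it. The ranges of PP1 (0.165 to 0.363 CPM) and PP3 (0 to 0.411 CPM) overlapped that of PC14 (0.238 to 0.417 CPM). The range of PP10 (0.151 to 0.232 CPM) did not. In the order Virgin, PC16, PC14, PP1, PP10, PP3, only virgins and PC16 had ranges that did not overlap. By counts, Prlh was found in no other region beyond 1 count in the cerebellum. With a floor of 3 counts over 18 libraries, the hypothalamus was at least 39.4-fold higher than the hippocampus and at least 34.8-fold higher than the neocortex. These bounds hold for the counts only. The FPKM table, made separately, gave 0.238 FPKM in the hippocampus of PP10 mouse 52, which had 0 counts.

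The profiles of Npw and Prlh ran opposite ways and turned at different times, with Prlh low from PC14 on and Npw high from PP1 on. Suprachiasmatic markers, a small nucleus that a dissection can include or miss, summed to 0.657 to 15.1 CPM in dams and 3.64 to 19.3 CPM in virgins, and their part in the Prlh values was not tested. The 250 bases before the start of Prlh are shown because Prlh had the lowest level in dams relative to virgins of the 8 members, and are from RefSeq (GRCm38.p6, chr1:90952858-90953107, plus strand, 5′ to 3′, with no capitals because none of the 3 motifs searched was found).
Prlh: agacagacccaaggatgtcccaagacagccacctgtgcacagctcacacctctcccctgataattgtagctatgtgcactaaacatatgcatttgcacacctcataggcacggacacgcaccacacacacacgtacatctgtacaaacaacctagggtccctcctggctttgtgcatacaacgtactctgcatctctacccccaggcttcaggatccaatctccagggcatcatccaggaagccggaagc

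The motifs were TTCNNNGAA, bound by STAT5, TGACGTCA, the cyclic AMP response element, and TGANTCA, bound by AP-1, each searched on both strands of 300 bases around the start. Of the members, 5 had such a window (Prlh, Prlhr, Gal, Pdyn and Tac1), and Pdyn had a pair of starts. The STAT5 letters were found in 1 of these 6 windows, at the second start of Pdyn, and in 8.30% of 32851 mouse windows. The other motifs were found in 0 of the 6, against 1.79% and 7.81% of all windows. The Pdyn match is shown with 15 bases on each side (chr2:129698798-129698836, minus strand), with the match in capitals.
Pdyn: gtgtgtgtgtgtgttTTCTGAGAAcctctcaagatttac

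Prlhr, the receptor for prolactin-releasing peptide, passed the test in none of 8 comparisons. It is at chr19:60466732-60468304 on the minus strand (ENSMUSG00000045052). Its counts were 51, 51 and 31 in virgins, 21, 48 and 35 at PC14, 37, 33 and 27 at PC16, 39, 33 and 22 at PP1, 35, 43 and 28 at PP3, and 21, 31 and 26 at PP10. Only the PP10 libraries all lay below the lowest virgin library in CPM, at 1.58 to 2.37 CPM against 2.51 to 3.98 CPM in virgins. The PP10 log2 fold change was -0.78 (SE 0.273, edgeR quasi-likelihood adjusted p = 0.0947), and over all dams it was -0.46 (SE 0.200, edgeR adjusted p = 0.195). The PP10 difference was called without virgin mouse O (-0.96, edgeR adjusted p = 0.0496). It was also called by edgeR's exact test run on the 6 virgin and PP10 mice alone (adjusted p = 0.034). Its side of the threshold thus rests on that library and that choice. At PP10 Prlhr had 0.791 to 0.893 FPKM, against 1.18 to 1.72 FPKM in virgins. It therefore passed the filter of 1 FPKM for that comparison only through virgins, where it was higher, and its PP10 values are read as a description. Prlhr had 612 counts in the hypothalamus, 152 in the cerebellum, 26 in the hippocampus and 0 in the neocortex.

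Penk, the precursor of the enkephalins and the most abundant of these genes, rose in pregnancy and was lower after birth than in pregnancy, though still above virgins. The gene (ENSMUSG00000045573) is at chr4:4133531-4138819 on the minus strand. It had 1349, 1416 and 1227 counts in virgins, 2042, 2167 and 2343 at PC14, 2104, 1903 and 1831 at PC16, 1876, 1431 and 1301 at PP1, 1572, 1527 and 1715 at PP3, and 1818, 1715 and 1611 at PP10. In CPM the 3 virgins lay at 98.1, 110 and 99.3, and 14 of 15 dams lay above all of them. The exception was PP1 mouse 56, at 107 CPM. The 3 PC14 mice were nearly identical, at 162, 162 and 163 CPM, and lay above every other library.

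The background for these comparisons is small. Of all genes tested, 1.29% were called for PC14 against virgins, 1.93% for PC16, 0.737% for PP1, 0.698% for PP3 and 6.12% for PP10, and Penk alone of the 6 members read was called, in 3 of these 5 comparisons (PC14, PC16 and PP10). At an unadjusted p under 0.05 there were 3 such members for PC14, 2 for PC16, 3 for PP1, 1 for PP3 and 2 for PP10, where 12.2%, 15.7%, 14.5%, 12.5% and 24.1% of all genes passed that mark. Penk rose by a log2 fold change of 0.66 at PC14 (SE 0.0771, edgeR quasi-likelihood adjusted p = 0.000751) and 0.55 at PC16 (SE 0.0773, edgeR adjusted p = 0.0017). At PP1 and PP3 its log2 fold changes were 0.31 and 0.32 (edgeR adjusted p = 0.0777 and 0.0748), which missed the threshold. At PP10 Penk was higher by 0.35 (SE 0.0775, edgeR adjusted p = 0.0164).

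The pregnancy calls of Penk stood in all 24 alternatives, while the postpartum ones turned on single libraries. The PP10 call was lost without virgin mouse B (0.31, edgeR adjusted p = 0.0741) and without PP10 mouse 52 (0.31, edgeR adjusted p = 0.0684). Without PP1 mouse 56, PP1 was called (0.42, edgeR adjusted p = 0.021), and so was PP3 (0.32, edgeR adjusted p = 0.016). DESeq2 called both stages, with adjusted p = 0.0178 for PP1 and 0.0118 for PP3. The difference between stages was therefore not shown by which stage was called.

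Nursing dams set against pregnant females tested the fall directly. Penk was lower by 0.28 on the log2 scale after birth (log2 fold change -0.28, SE 0.0490, edgeR adjusted p = 0.0212), where 0.245% of all genes and 1 of the 6 members read were called. All 9 nursing dams lay between 107 and 138 CPM, and all 6 pregnant females lay between 144 and 163 CPM. That call was lost without PC14 mouse 67 (adjusted p = 0.0574), PC14 mouse 68 (0.0506) or PC16 mouse 54 (0.0597), with the log2 fold change between -0.30 and -0.25 in all 18 edgeR fits that left out 1 library.

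Over all dams against virgins, 4.74% of genes were called, and Penk was the only one of the 6 members read. Its log2 fold change was 0.44 (SE 0.0618, edgeR adjusted p = 0.000974), a 1.35-fold higher level, and it was called in all 23 alternatives with adjusted p from 3.34e-09 to 0.0134. The test of any difference among the 6 stages called 0.959% of genes and again only Penk (edgeR adjusted p = 0.00356).

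**Figure D2:**
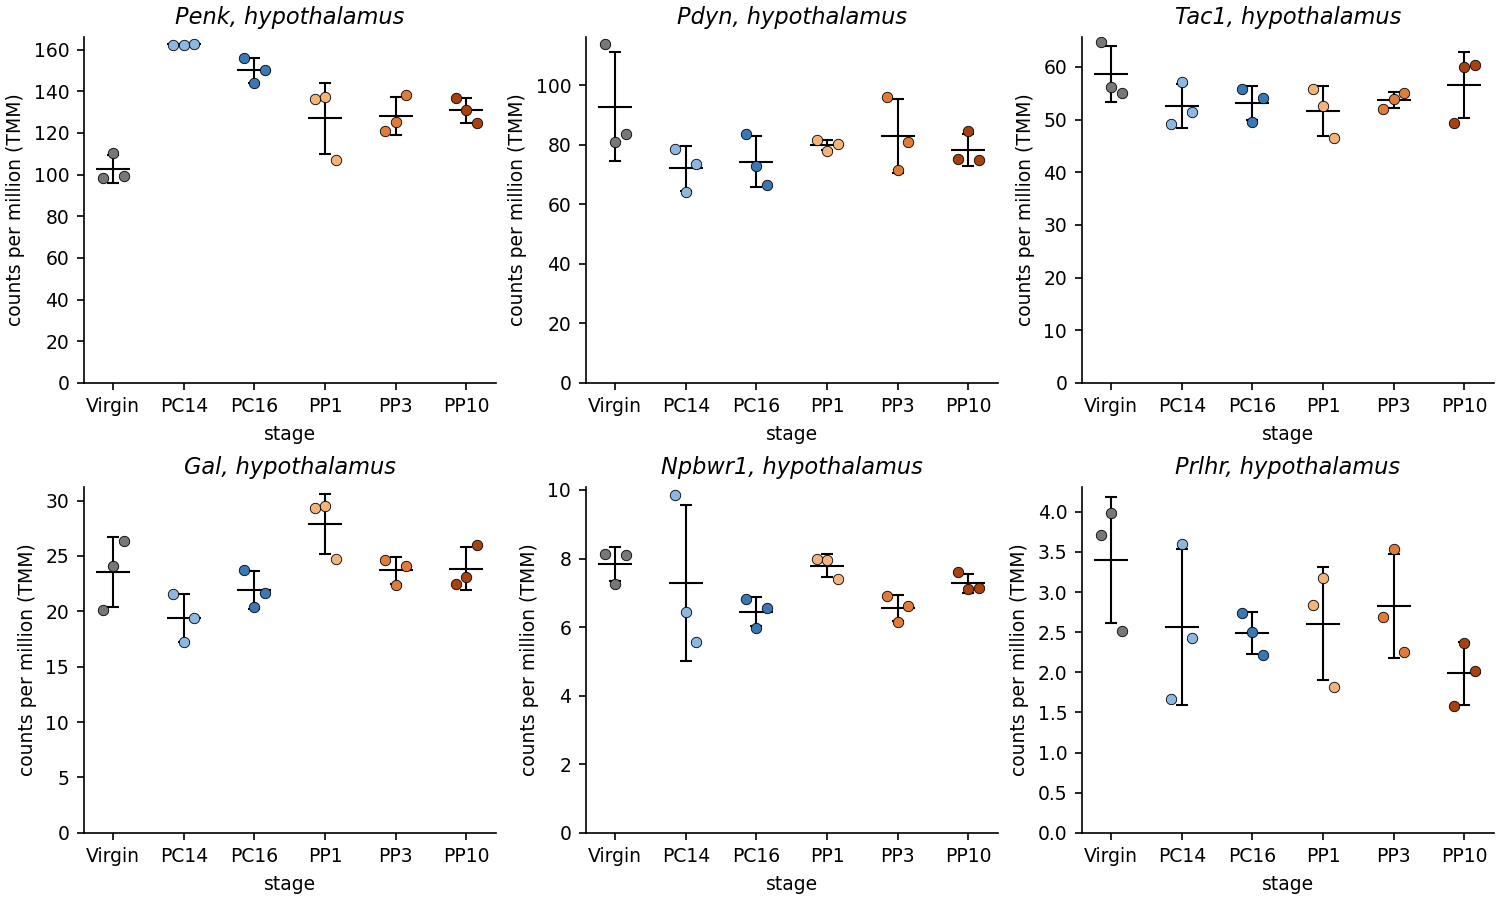
Levels in the hypothalamus of the 6 members not picked for a pattern, in CPM after TMM scaling, with a vertical axis of its own from 0 for each gene. Each point is 1 mouse, the wide bar is the mean and the error bar is 1 SD (n = 3). The PC14 points of Penk sit together at 162 to 163 CPM, above the virgins at 98.1 to 110 CPM, while no stage of the other 5 genes was called against virgins.

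Penk reads may not be fully its own. The span of an antisense gene on the plus strand, A830012C17Rik (ENSMUSG00000085996), overlaps an exon of Penk. Whether exons of the pair overlap was not examined. The libraries did not keep strand, so reads in any shared exon part cannot be told apart. That gene had 66, 65 and 79 counts at PC14 and 45, 47 and 37 counts in virgins, and its counts were 2.80% to 3.60% of those of Penk by stage. The other 7 members overlap no annotated gene.

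Penk is itself abundant in striatal neurons, so markers of these neurons were read beside it. Drd2, the dopamine D2 receptor, was 9.81 to 14.4 CPM in dams and 7.71 to 9.55 CPM in virgins and rose (0.45, edgeR adjusted p = 0.0219), a call lost without virgin mouse B (0.36, edgeR adjusted p = 0.169) or virgin mouse M (0.48, edgeR adjusted p = 0.0718). Drd1, Rgs9, Pde10a and Ppp1r1b did not pass, and Adora2a was under the filter, so 1 of these 5 tested striatal markers was called. The 5 had a median log2 fold change of 0.028, beside -0.0049 over all genes. The summed level of the 6 was 157 to 170 CPM in dams and 144 to 168 CPM in virgins, ranges that overlap, with no marker at 0. Genes of red blood cells rose at PC14, where all 5 were called and summed to 438 to 1403 CPM, against 171 to 212 CPM in virgins. The summed hypothalamus markers were 887 to 1473 CPM at PC14, where Penk was highest, against 1596 to 1892 CPM in virgins. The part of striatal neurons, red blood cells or tissue content in the Penk difference was not tested.

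**Figure D3:**
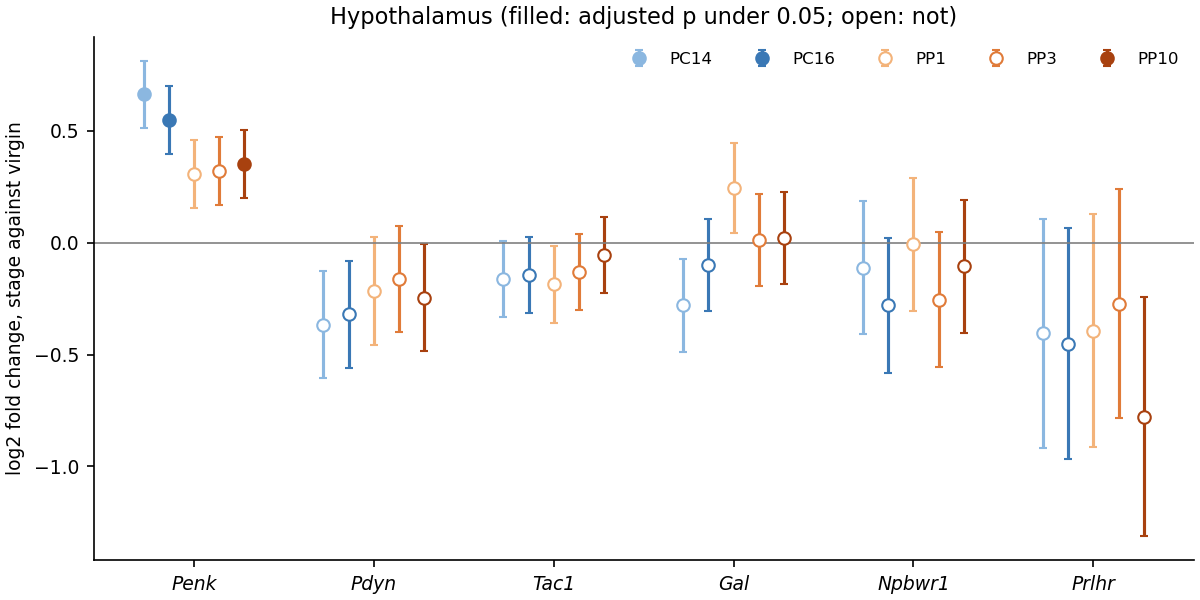
Log2 fold change of each stage against virgins in the hypothalamus for the 6 members not picked for a pattern. Bars are normal 95% intervals from the SE of edgeR's quasi-likelihood fit over 18 libraries, narrower than those of its test. Filled points passed an adjusted p of 0.05, which only Penk did, at PC14 (0.66), PC16 (0.55) and PP10 (0.35).

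The rise of Penk was tested against the other regions of the same mice. Dams minus virgins gave -0.079 in the cerebellum (edgeR adjusted p = 0.235), 0.12 in the neocortex (0.444) and -0.086 in the hippocampus (0.434), none of which passed. For dams against virgins, 29.5% of all genes and 0 of 2 members past the filter were called in the cerebellum, 6.99% and 0 of 3 in the neocortex, and 6.14% and 0 of 3 in the hippocampus. At an unadjusted p under 0.05 there was 1 such member in the hippocampus (Pdyn), where 22.7% of all genes passed that mark, and 0 in the neocortex (22.5%) and cerebellum (43%), and DESeq2 also called 0. The dam effect on Penk in the hypothalamus exceeded the mean of the other 3 regions by 0.45 on the log2 scale (SE 0.0788, edgeR adjusted p = 0.000217), in a comparison that called 4.37% of genes. This main fit took the 4 libraries of a mouse as independent. The Penk difference was called in all 3 alternatives, the fit with the mouse as a replicate block included. The cerebellum value became a called difference of -0.18 (edgeR adjusted p = 0.000788) without virgin mouse O, in a fit that called 7471 genes over all, against 4070 with every library.

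**Figure D4:**
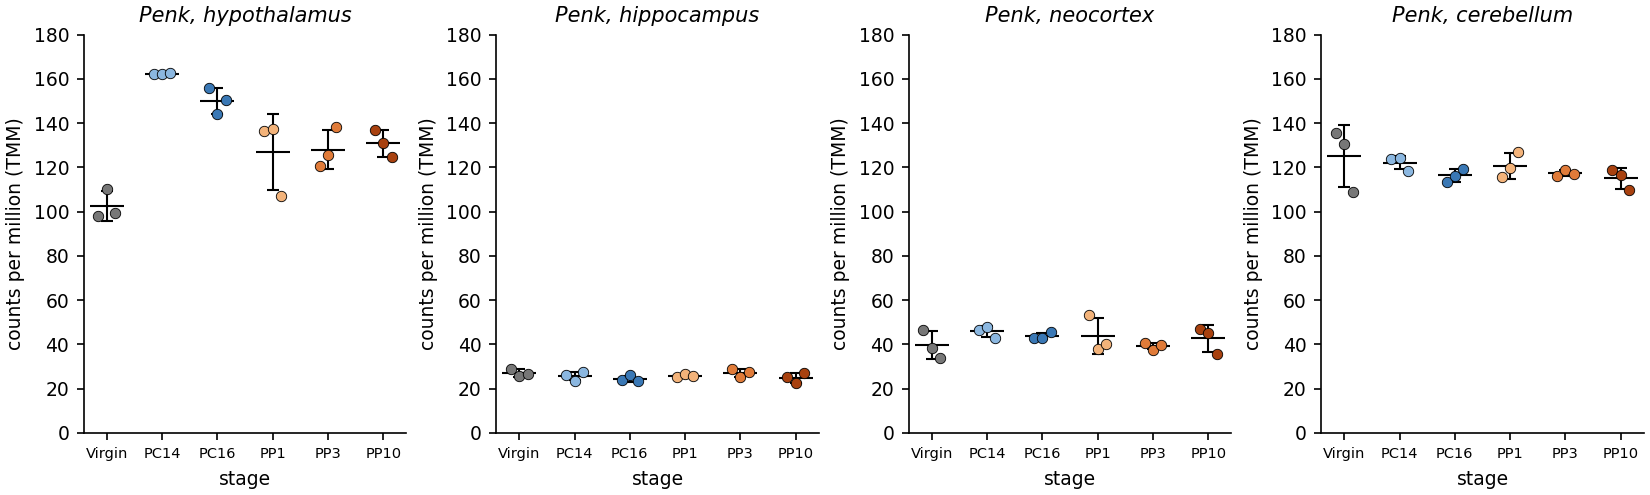
Level of Penk in the 4 regions by stage, in CPM after TMM scaling within each region, on a common vertical axis from 0. Each point is 1 mouse, the wide bar is the mean and the error bar is 1 SD (n = 3). The hypothalamus runs from 98.1 CPM in virgins to 163 CPM at PC14, while in the other 3 regions the dams as a group overlap the virgins.

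Pdyn, the dynorphin precursor, had its highest library among the virgins and passed no test in the hypothalamus. It is at chr2:129686565-129699844 on the minus strand (ENSMUSG00000027400). The virgins had 1564, 1036 and 1032 counts, or 114, 80.8 and 83.5 CPM, so that virgin mouse B stood apart. Dams had 990, 854 and 1056 counts at PC14, 1127, 964 and 809 at PC16, 1120, 811 and 974 at PP1, 1251, 871 and 1006 at PP3, and 1000, 1108 and 968 at PP10. The highest dam, at PP3, reached 96.1 CPM, within the range of the virgins, and the stage means of dams lay below the virgin mean of 92.7 ± 18.3 CPM at every stage, the nearest being 82.9 ± 12.4 CPM at PP3 (SD, n = 3 each). Over all dams the log2 fold change was -0.26 (SE 0.0928, edgeR adjusted p = 0.115), with a range of -0.35 to -0.09 when each library was left out. Penk and Pdyn, both opioid precursors, thus had differences of opposite sign from virgins, of which only that of Penk passed the test. Outside the hypothalamus, Pdyn was called in the neocortex for PC16 against virgins, where 2.21% of genes were called, and for any difference among stages, where 8.61% were. These 2 calls were noticed after the values of 7 further comparisons in 3 regions had been seen.

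Gal, the galanin precursor, showed its lowest level at PC14 and its highest at PP1. It is at chr19:3409915-3414544 on the minus strand (ENSMUSG00000024907). Its counts were 277, 309 and 326 in virgins, 271, 230 and 279 at PC14, 320, 269 and 264 at PC16, 404, 307 and 300 at PP1, 321, 272 and 299 at PP3, and 298, 303 and 336 at PP10. The mean was 19.4 ± 2.15 CPM at PC14 and 27.9 ± 2.72 CPM at PP1, on either side of virgins at 23.5 ± 3.16 CPM (SD, n = 3 each). Nursing dams against pregnant females gave 0.28 (SE 0.0683, edgeR adjusted p = 0.15), which missed the threshold over 14298 genes. Dams against virgins gave -0.021 (SE 0.0810, edgeR adjusted p = 0.918), with an interval of -0.18 to 0.14.

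Tac1, which encodes substance P and neurokinin A, varied least between stages among the abundant members. It is at chr6:7554879-7565834 on the plus strand (ENSMUSG00000061762). Its counts were 891, 720 and 681 in virgins, 618, 763 and 739 at PC14, 752, 654 and 659 at PC16, 767, 547 and 564 at PP1, 678, 657 and 683 at PP3, and 656, 785 and 779 at PP10. Its stage means lay between 51.6 ± 4.72 CPM at PP1 and 58.7 ± 5.32 CPM in virgins (SD, n = 3 each), and the ranges of all neighbouring stages overlapped. Dams against virgins gave -0.14 (SE 0.0665, edgeR quasi-likelihood unadjusted p = 0.0566, adjusted p = 0.255). The normal interval was -0.27 to -0.0053, which is narrower than that of the test. The dam effect in the hypothalamus did not pass the test against the other regions for Tac1 (-0.27, edgeR adjusted p = 0.314) or Pdyn (-0.18, edgeR adjusted p = 0.621).

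Levels differed widely between genes and regions. Per transcript length, Penk averaged 102 ± 16.3 FPKM in the hypothalamus, Tac1 59.9 ± 6.21, Gal 49.6 ± 6.56 and Pdyn 31.6 ± 5.14 (SD, n = 18 each), while Npw, Npbwr1, Prlhr and Prlh averaged under 2 FPKM. Penk was nearly as high in the cerebellum, at 89.5 ± 4.05 FPKM. It was higher in the hypothalamus than in the cerebellum in 14 of 15 dams and in 0 of 3 virgins, with ratios of 1.18 (1.16 to 1.20) in dams and 0.829 (0.794 to 0.866) in virgins. The intervals on ratios here cover counting error in pooled reads only and leave out the spread between mice. Penk averaged 33.1 ± 4.30 FPKM in the neocortex and 19.7 ± 1.39 FPKM in the hippocampus. Gal was the most confined of the abundant members, with 5385 counts in the hypothalamus, 48 in the cerebellum, 32 in the hippocampus and 0 in the neocortex. The FPKM table, made separately, gave it 0.102 ± 0.113 FPKM in the neocortex (SD, n = 18), so the 0 counts set no bound. Pdyn averaged 9.75 ± 0.864 FPKM in the neocortex, 5.06 ± 0.780 FPKM in the hippocampus and 0.270 ± 0.134 FPKM in the cerebellum (SD, n = 18 each). Tac1 had 12593 counts in the hypothalamus, which put its level at 6.90 times that of the neocortex (6.56 to 7.27), 8.97 times that of the hippocampus (8.49 to 9.48) and 40.9 times that of the cerebellum (36.3 to 46.3). Both were higher in the hypothalamus than in each other region of the same brain in 18 of 18 mice.

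Set against the mean of the other 3 regions over 72 libraries, where 86.9% of all genes were called, the log2 difference was 1.26 for Penk (SE 0.0277, edgeR adjusted p = 1.33e-44), 3.65 for Pdyn (SE 0.0488, edgeR adjusted p = 8.52e-56) and 3.66 for Tac1 (SE 0.0475, edgeR adjusted p = 1.93e-56). A call is close to the rule in that comparison, so the sizes say more than the p-values. The other 5 members had stages with all libraries at 0 in some region and were not fitted there.

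**Figure D5:**
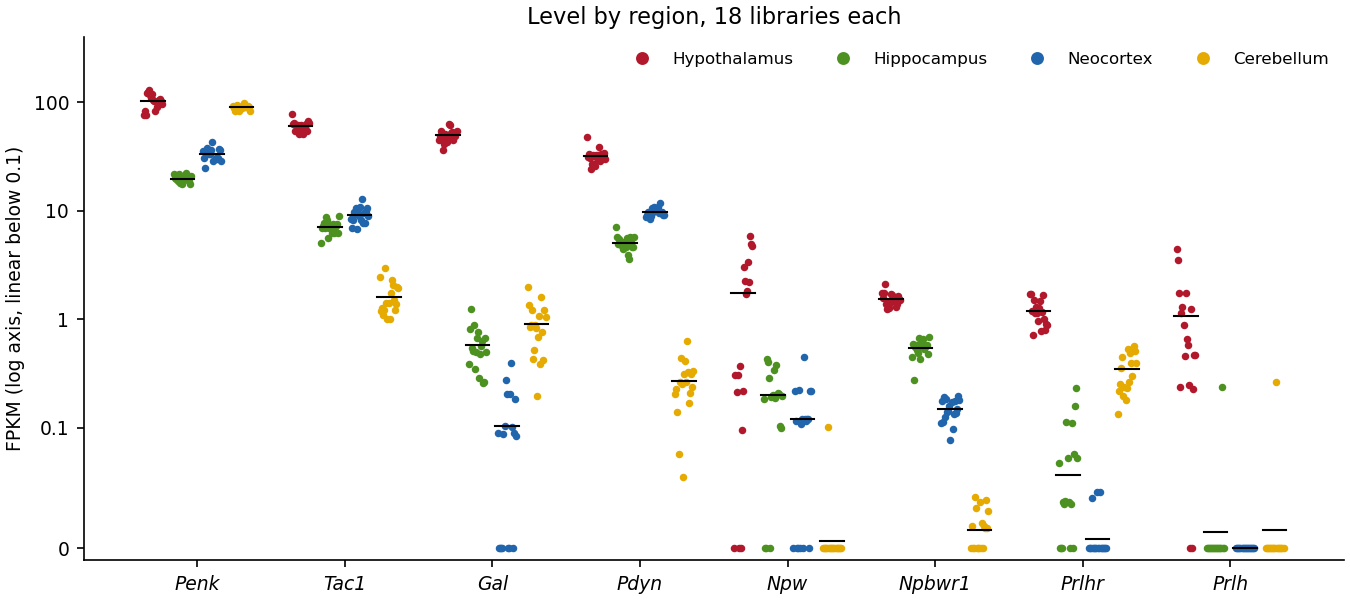
FPKM of the 8 members in the 4 regions, 18 libraries each, on an axis that is logarithmic above 0.1 and linear below it. Each point is 1 library and the bar is the mean. Penk lies near 100 FPKM in the hypothalamus and near 90 in the cerebellum, and Npw and Prlh are at or near 0 outside the hypothalamus.

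Related genes of the same pathways were counted in dams against virgins. Among 7 tested ligands of the same families, 2 fell and none rose, with a list median of -0.13 beside -0.0049 over all genes, of which 4.74% were called (175 genes without virgin mouse B). Pomc, the precursor of melanocortins and beta-endorphin, was lower by a log2 fold change of -0.97 (edgeR adjusted p = 0.00317), with 752 to 1551 counts in dams and 3816, 1859 and 1962 counts in virgins, of which the first is mouse B. Without that mouse the difference was -0.62 and was not called (edgeR adjusted p = 0.068). Qrfp, another RF-amide peptide like Prlh, was lower by -0.93 (edgeR adjusted p = 0.00861), with 23 to 63 counts in dams and 62 to 109 counts in virgins, and was not called without that mouse either (-0.75, edgeR adjusted p = 0.109).

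Of 10 receptors tested, Npbwr1 and Prlhr included, 1 fell, and the list median was -0.11, against the same 4.74% of all genes. Oprd1, the delta opioid receptor on which enkephalins act, was lower by -0.57 (edgeR adjusted p = 0.011), with 3.18 to 5.26 CPM in dams and 5.34 to 7.42 CPM in virgins. It lost its call without virgin mouse B (-0.46, edgeR adjusted p = 0.13) or virgin mouse M (-0.55, edgeR adjusted p = 0.067). The kappa and mu opioid receptors, Oprk1 and Oprm1, did not pass, at -0.0045 and 0.23 (edgeR adjusted p = 0.983 and 0.57).

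Prohormone processing genes moved little, with 2 of 10 higher against 4.74% of all genes called and a list median of -0.015. Cpe, which trims the basic residues that convertases leave, was higher by 0.18 (edgeR adjusted p = 0.00448), and the convertase gene Pcsk2 by 0.21 (edgeR adjusted p = 0.0181). Neither was called without virgin mouse B, at 0.14 (edgeR adjusted p = 0.0595) for Cpe and 0.13 (edgeR adjusted p = 0.161) for Pcsk2. The convertase gene Pcsk1 was lower at PC16 (-0.36, edgeR adjusted p = 0.0466).

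In prolactin signalling 2 of 8 genes were higher, beside 4.74% of all genes called, with a list median of 0.073. Cish, a STAT5 target that dampens cytokine signalling, had 146 to 382 counts in dams and 130 to 182 counts in virgins and was called at all 5 later stages (0.90 over all dams, edgeR adjusted p = 0.000615). Socs2, another such inhibitor, had 133 to 329 counts in dams and 101 to 172 counts in virgins (0.82, edgeR adjusted p = 0.00111). It was lower in nursing dams than in pregnant females by -0.54 (edgeR adjusted p = 0.012), the direction of the Penk difference. Socs3 was called only at PC14 (0.73, edgeR adjusted p = 0.0399), and Prlr, the prolactin receptor, did not pass (-0.11, edgeR adjusted p = 0.469). The calls of Cish and Socs2 were kept in all 18 fits that left out 1 library, and the 8 other list genes named here as called in dams lost theirs without virgin mouse B. Those 8 include the hypothalamus markers Otp (-0.32, edgeR adjusted p = 0.0171, also lost without virgin mouse M) and Rax (-0.53, edgeR adjusted p = 0.0186).

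Genes whose level followed Npw most closely over the 18 hypothalamus libraries were Tmcc2 (Pearson r = 0.88), Tmem183a (0.84), Git1 (0.83) and Steap2 (0.83), followed by Sdf2l1, Lasp1, Slc39a10 and Ppp1r9b (0.80 each). Those most like Prlh were Mex3d (0.81), Tle3 and Setd1b (0.79 each), Csf1, Usp37 and Bcl11b (0.78 each), and N4bp2l2 and Smad5 (0.77 each). The values were log2 CPM with a prior count of 2, and the libraries share stage and depth. Npw averaged 15.7 counts and Prlh 6.5 counts a library, so these lists are loose. Of each 8, 4 for Npw and 3 for Prlh were found again with Spearman's rho.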

How the data were processed

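The authors trimmed reads with Trimmomatic 0.32, mapped them to GRCm38 by TopHat 2.0.8 over Bowtie 2 with Ensembl gene models and deposited whole-number counts per gene and library (easyRNASeq geneModels, no normalization) and FPKM from Cufflinks 2.1.1 without effective length correction. The library kit did not keep strand. Blank FPKM cells (13828) were read as 0, and a library with a count of 0 can have an FPKM above 0, because the 2 tables were made separately. Of 39179 IDs, 37607 had a symbol in the reference tables, 4 list genes had no match, and 0 of 72 replicate pairs were identical.

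Counts of the 18 libraries of a region were fitted with edgeR 4.0.16 (R 4.3.3), 1 coefficient per stage, TMM factors within the region and the quasi-likelihood test. The study also used edgeR, but states TMM over all samples and tagwise dispersions and names no quasi-likelihood test. Genes entered a comparison if every one of the 3 mice of a compared stage reached 1 FPKM. Npw passed only through the postpartum stages and Prlh through virgins. In the hypothalamus Prlhr passed only through virgins and PP3. Penk, Pdyn and Tac1 passed in the hippocampus and neocortex, and Penk and Tac1 in the cerebellum. P-values were adjusted by Benjamini-Hochberg over all genes tested and called under 0.05. Regions were compared in 1 fit of all 72 libraries, with the mouse as a block only in an alternative. Ratios of counts between stages use TMM-scaled library sizes. Those between regions, and the counts of mice higher in the hypothalamus, use total library counts with no TMM scaling. These ratios have exact 95% counting intervals, which leave out the spread between mice, and 3 counts is the floor for a count of 0. Intervals on log2 fold changes are normal 95% intervals from the SE, which are narrower than those of the quasi-likelihood test. Motifs were searched in RefSeq promoter windows. Npw, Npbwr1 and Penk had no window in that table.

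Members and lists were chosen with earlier results of these data known. All 8 members are named, as are list members called in a hypothalamus comparison (at most 6 a list) and the 8 genes most like Npw and Prlh. Alternatives were DESeq2 1.42.0 (size factors, Wald test), TMM over 72 libraries, no filter, filterByExpr, edgeR's exact test, a mouse block and leaving out each library. Stages hold different mice, so pairing exists only between regions of 1 mouse. There the median correlation of same-mouse deviations was 0.0322 to 0.117 over 13745 genes. A striatal marker is not reported here and is left out of the counts and sums of its list. The method was tested on simulated data. Tables and figures used python 3.11.15, pandas 2.3.3, numpy 2.4.6, scipy 1.17.1 and matplotlib 3.10.9. The study's mice were separate animals, so p-values of fits within a region measure the spread between mice. The main fit of all 72 libraries took the 4 libraries of a mouse as independent.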

Additional observations from a re-analysis of the deposited data

Results flagged for a closer look

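Penk, the enkephalin precursor, differed between dams and virgins in the hypothalamus more than in the other 3 regions of the same mice. The difference of the dam effects was 0.45 on the log2 scale (SE 0.0788, edgeR quasi-likelihood adjusted p = 0.000217 over 15348 genes), and it is listed because the test was of the difference between regions itself. Penk was 107 to 163 CPM in the hypothalamus of 15 dams and 98.1 to 110 CPM in that of 3 virgins.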

How the results depend on the processing

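Of 969 alternative values over 50 results, 913 kept their direction and their side of the threshold. The count of members called (of the 6 read) was 1 with DESeq2 and with no filter at PP1 and at PP3, where it was 0, and 1 with the exact test at PP3. It was 2 with the exact test at PP10 (Prlhr added), and 2 with DESeq2 for any difference among stages (Gal added). Leaving out 1 library gave counts of 0 to 1 at PP1, 0 to 1 at PP3, 0 to 2 at PP10, 0 to 1 for postpartum against pregnancy and 0 to 1 in the cerebellum. Values near 0 that changed sign when 1 library was left out, none of them called, were Gal (-0.12 to 0.065 in dams), Npbwr1 (-0.0086 to 0.21) and Prlhr (-0.17 to 0.10) for postpartum against pregnancy, and Tac1 in dams in the hippocampus (-0.0056 to 0.36) and cerebellum (-0.12 to 0.23). Of the 8 genes most like Npw, 4 were found again with Spearman's rho and 4 with a prior count of 0.5, and of those most like Prlh, 3 and 4. The mouse as a replicate block, possible only between regions, kept the Penk difference called (0.45, edgeR adjusted p = 0.000222) and changed no other call of a member. No paired analysis was possible between stages because they hold different mice. A stage left with 2 mice borrowed its spread from the rest of the fit. With 3 virgins, and 6.5 counts of Prlh a library, small differences could not be shown at this depth.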

Other observations

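Pdyn, the dynorphin precursor, gave a call outside the hypothalamus that was noticed only after the values of all stages had been seen. In the neocortex it had 325, 334 and 319 counts at PC16 and 284, 291 and 278 counts in virgins, or 27.5 to 29.8 CPM at PC16 and 23.9 to 24.5 CPM in virgins. The groups did not overlap. The log2 fold change was 0.25 (SE 0.0632, edgeR quasi-likelihood adjusted p = 0.0387), where 2.21% of all genes were called. The test of any difference among the 6 stages in the neocortex called 8.61% of genes and also called Pdyn (edgeR adjusted p = 0.036). The PC16 call was kept in 16 of 23 alternatives, with edgeR or DESeq2 adjusted p from 0.0269 to 0.18. It was lost with DESeq2 (adjusted p = 0.18), without each of the 3 virgins (0.082, 0.0953 and 0.0831) and without each of the 3 PC16 mice (0.158, 0.0503 and 0.0678), with a log2 fold change of 0.23 to 0.29 when 1 library was left out. In the hypothalamus of the same mice Pdyn was 66.4 to 83.5 CPM at PC16 and 80.8 to 114 CPM in virgins, the opposite direction (-0.32, edgeR adjusted p = 0.21).

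The 3 PC14 hypothalami differed in Penk by less than any other stage, with an SD of 0.292 CPM beside 6.01 to 17.2 CPM elsewhere. In FPKM the contrast was smaller, with an SD of 2.84 at PC14 beside 4.26 in virgins and 12.3 at PP1. Whether the PC14 spread in CPM was below what counting error alone gives was not tested.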
